A study of Mus musculus with 48 samples.

Results

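Mast cell genes were followed as the rows of the deposited count table that bear the symbol of 1 of 8 chosen genes. Of these, Kit, Fcer1a, Ms4a2, Cpa3 and Hdc were found, which makes 5 of the 39637 genes in the table, and Mcpt4, Tpsb2 and Cma1 were not analysed here. RNA came from 48 whole tumours, 1 per mouse, grown under the skin of female BALB/c mice aged 8 to 9 weeks. Both lines are transplanted mouse cancers: AB1 is a mesothelioma, a tumour of the lining of the body cavities, and Renca is a kidney cancer. AB1 responders, AB1 non-responders, Renca responders and Renca non-responders had 12 tumours each. All were taken at the pretreatment stage, 8 days after injection for AB1 and 10 days for Renca, and every mouse is labelled for the same antibody pair against CTLA4 and PD-L1, with the later outcome as the group. The comparison asks whether tumours of later responders already differed.

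Mast cells are tissue-resident granulocytes that grow on stem cell factor through the receptor Kit and carry IgE on the high-affinity receptor FcεRI. Cross-linked IgE makes them release granules of proteases, histamine and serglycin, followed by newly made prostaglandin D2 and leukotrienes. Kit is the receptor tyrosine kinase for stem cell factor, Fcer1a the IgE-binding chain of FcεRI and Ms4a2 its signal-amplifying beta chain. Cpa3 is the carboxypeptidase stored in the granules, and Hdc is the enzyme that makes histamine from histidine. None is wholly private to mast cells: basophils share Fcer1a, Ms4a2 and Hdc, neutrophils and other myeloid cells can express Hdc, and Kit is also found on melanocytes and on blood progenitors.

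Promoter sequences of the 5 genes are shown as a description, and whether they bear on how the genes varied together was not tested. The windows are the 250 bases before each RefSeq transcription start in GRCm38.p6, read 5′ to 3′ on the strand of the gene. Capitals mark GATAA, the core bound by GATA factors, and CATGTG, an E-box that the mast cell factor Mitf is known to bind, each searched on both strands, so that TTATC and CACATG are the reverse forms. The marked sites did not overlap.
Cpa3: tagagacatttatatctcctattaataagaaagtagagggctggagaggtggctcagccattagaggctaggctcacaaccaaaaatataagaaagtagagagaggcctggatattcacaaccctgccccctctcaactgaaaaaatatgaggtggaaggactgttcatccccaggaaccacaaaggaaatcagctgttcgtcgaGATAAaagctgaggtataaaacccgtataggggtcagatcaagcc
Fcer1a: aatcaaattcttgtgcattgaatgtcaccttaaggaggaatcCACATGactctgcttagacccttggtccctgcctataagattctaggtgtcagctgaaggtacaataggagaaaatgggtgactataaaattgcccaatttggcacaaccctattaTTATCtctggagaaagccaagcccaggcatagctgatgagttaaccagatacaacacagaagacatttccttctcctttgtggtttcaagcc
Ms4a2: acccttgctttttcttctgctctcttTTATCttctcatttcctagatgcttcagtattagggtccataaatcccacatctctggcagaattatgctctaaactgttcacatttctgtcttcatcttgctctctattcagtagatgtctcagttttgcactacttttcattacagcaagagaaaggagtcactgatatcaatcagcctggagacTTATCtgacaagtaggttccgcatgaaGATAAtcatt
Hdc: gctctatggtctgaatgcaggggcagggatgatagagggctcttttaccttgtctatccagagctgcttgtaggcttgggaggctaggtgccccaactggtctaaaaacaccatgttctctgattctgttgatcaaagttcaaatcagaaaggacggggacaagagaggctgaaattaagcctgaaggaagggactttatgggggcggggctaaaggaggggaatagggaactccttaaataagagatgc
Kit: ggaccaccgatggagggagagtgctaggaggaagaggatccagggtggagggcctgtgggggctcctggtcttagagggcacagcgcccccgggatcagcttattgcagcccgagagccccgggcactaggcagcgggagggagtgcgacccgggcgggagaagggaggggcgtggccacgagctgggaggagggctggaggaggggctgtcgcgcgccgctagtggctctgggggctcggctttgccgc
The windows lie on GRCm38.p6 at chr3:20242182-20242431 (minus) for Cpa3, chr1:173227230-173227479 (minus) for Fcer1a, chr19:11623720-11623969 (minus) for Ms4a2, chr2:126618679-126618928 (minus) for Hdc and chr5:75574737-75574986 (plus) for Kit, for which the first of 2 listed starts was used. GATAA was found 3 times in Ms4a2, 1 time in Fcer1a and 1 time in Cpa3, and not in the windows of Hdc and Kit. CATGTG was found in Fcer1a alone of the 5. GATAA occurred in 22.6% and CATGTG in 12.3% of 32851 mouse windows of the same length. These matches describe letters and not binding.

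Each library, from 1 mouse, held between 16.4 and 27.8 mega-counts. Levels are given as CPM, counts scaled to library size, with TMM factors over all 48 libraries. Tumour labels were checked against marker lists: the renal tubule markers summed to at most 0.224 CPM in AB1 and to 191.9 to 433.5 CPM in Renca, with Umod at 0 in all 4 groups. The mesothelium markers Lrrn4, Upk3b, Wt1 and Krt19 summed to only 0.217 to 8.80 CPM in AB1. Skin epithelium markers reached 1037 CPM in AB1 non-responder 3, against a median of 11.5 CPM in AB1 non-responders. Leaving that library out with AB1 non-responder 7 and AB1 responder 3, which were also doubted for keratin RNA, left 5 of 5 mast cell genes called in AB1.

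**Figure D1:**
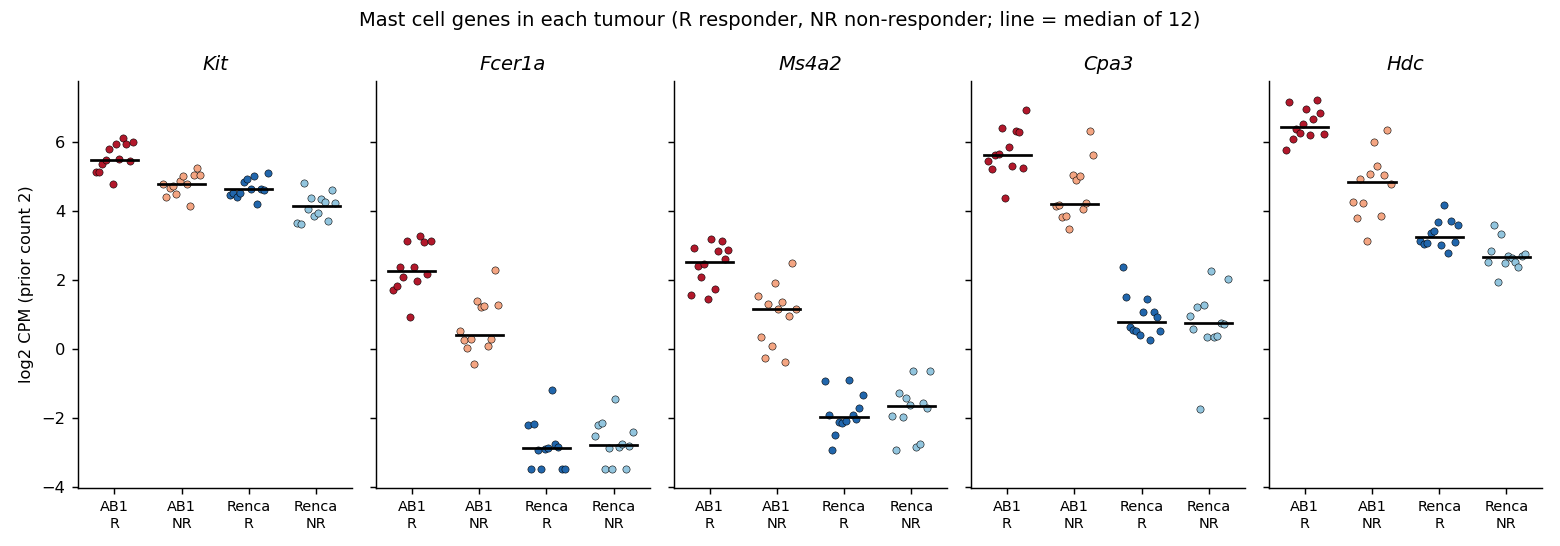
Level of the 5 mast cell genes in each of the 48 tumours, as log2 CPM with a prior count of 2 on the y axis, with responders (R) left of non-responders (NR) for each tumour line, 1 point per library and a line at the median of 12. Fcer1a, Ms4a2 and Cpa3 sat far lower in Renca than in AB1, while Kit was of similar order in both.

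In AB1, all 5 mast cell genes were higher in responders than in non-responders. At a Benjamini-Hochberg adjusted p of at most 0.05 in edgeR's quasi-likelihood test, 27.7% of the 15859 genes tested in AB1 were called higher and 60.4% were called in either direction. The median log2 fold change of the 5 genes was 1.43, beside -0.04 over all tested genes. In bulk tissue, more cells of a type and more RNA per cell cannot be told apart.

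The receptor for stem cell factor moved least. Kit measured between 27.4 and 69.5 CPM in AB1 responders, with a median of 44.8 CPM, against 17.6 to 37.6 CPM in AB1 non-responders, with a median of 27.5 CPM. The groups overlapped, but 9 of 12 responders lay above every non-responder. Its log2 fold change was 0.84 ± 0.13 (SE; adjusted p = 1.19e-05, edgeR).

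Both FcεRI chains had larger fold changes than Kit. Fcer1a spanned 1.83 to 9.51 CPM in AB1 responders (median 4.76) and 0.652 to 4.78 CPM in AB1 non-responders (median 1.24). The log2 fold change of Fcer1a was 1.74 ± 0.29 (SE; adjusted p = 1.92e-05, edgeR), and 12 of 12 responders were above the non-responder median. Ms4a2 spanned 2.66 to 8.96 CPM in AB1 responders (median 5.71) and 0.677 to 5.56 CPM in AB1 non-responders (median 2.15), a log2 fold change of 1.43 ± 0.29 (SE; adjusted p = 0.000175, edgeR). For each chain 6 of 12 responders lay above every non-responder.

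The granule enzyme Cpa3 and the histamine enzyme Hdc were higher as well. Cpa3 ran from 20.5 to 121.5 CPM in AB1 responders (median 49.5) and from 11.02 to 79.5 CPM in AB1 non-responders (median 18.2). Only 3 of 12 responders exceeded every non-responder for Cpa3, and its log2 fold change was 1.22 ± 0.29 (SE; adjusted p = 0.000895, edgeR). Hdc ran from 54.1 to 149.8 CPM in AB1 responders (median 87.1) and from 8.66 to 81.5 CPM in AB1 non-responders (median 28.9), and 10 of 12 non-responders lay below every responder. Its log2 fold change was 1.72 ± 0.27 (SE; adjusted p = 9.75e-06, edgeR).

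A single library shaped the overlap. AB1 non-responder 11 was the highest non-responder for all 5 genes, with 79.5 CPM of Cpa3 and 81.5 CPM of Hdc, while AB1 responder 6 was the lowest responder for Kit, Fcer1a, Ms4a2 and Cpa3. Without AB1 non-responder 11 the log2 fold change of Cpa3 was 1.42 and that of Ms4a2 was 1.61. Tumours were sequenced on 2 flow cells per line, with both outcomes on each. Within the first flow cell of AB1, holding replicates 1 to 5, the log2 fold changes were 0.83 for Kit, 2.30 for Fcer1a, 1.69 for Ms4a2, 1.87 for Cpa3 and 2.26 for Hdc. Within the second, holding replicates 6 to 12, they were 0.88 for Kit, 1.41 for Fcer1a, 1.29 for Ms4a2, 0.79 for Cpa3 and 1.37 for Hdc. Cpa3 was not called there (adjusted p = 0.112, edgeR), and the other 4 were called on each flow cell.

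General leukocyte genes moved with these genes. The 8 pan-leukocyte genes, among them Ptprc, summed to between 2714 and 6133 CPM in AB1 responders and between 1578 and 2800 CPM in AB1 non-responders, and 8 of 8 were higher in responders. Dividing each mast cell gene by that sum, a scaling chosen after the data were seen, gave a log2 difference of 0.64 for Hdc, 0.55 for Fcer1a, 0.37 for Ms4a2, 0.01 for Cpa3 and -0.36 for Kit. On that scale none of the 5 passed an exact permutation test within flow cells at 0.05 (two-sided, adjusted over 8 tests: p = 0.0511 for Hdc, 0.058 for Kit, 0.115 for Fcer1a, 0.273 for Ms4a2 and 0.968 for Cpa3). Before adjustment the exact permutation p was 0.00638 for Hdc, where 10 of 12 responders exceeded the median non-responder, and 0.0145 for Kit, where 1 of 12 did. The part of the leukocyte level in the responder difference was not tested further. Melanocyte markers Tyr and Tyrp1 had a median of 0 CPM in AB1 responders and 0.0855 CPM in AB1 non-responders, with up to 5.77 CPM and 43.6 CPM, in the keratin-bearing AB1 responder 3 and AB1 non-responder 3.

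In Renca the picture was narrower: Kit and Hdc were higher in responders, Cpa3 was not called, and both FcεRI chains lay at the limit of counting. Among all 15778 tested genes 19.6% were called and 11.1% were called higher, beside 2 of the 3 mast cell genes that passed the filter on low counts. Kit measured 18.3 to 34.4 CPM in Renca responders (median 24.5) and 12.1 to 27.9 CPM in Renca non-responders (median 17.7). The groups overlapped, though every one of the 12 responders exceeded the median non-responder, with a log2 fold change of 0.52 ± 0.13 (SE; adjusted p = 0.00858, edgeR).

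Hdc in Renca measured 6.76 to 17.9 CPM in responders (median 9.43) and 3.76 to 12.0 CPM in non-responders (median 6.21). Its log2 fold change was 0.65 ± 0.17 (SE; adjusted p = 0.0105, edgeR), and 9 of 12 non-responders lay below every responder. Cpa3 measured 1.11 to 5.06 CPM in Renca responders (median 1.66) and 0.211 to 4.68 CPM in Renca non-responders (median 1.59), a log2 fold change of 0.08 ± 0.32 (SE; adjusted p = 0.888, edgeR). That test does not show that Cpa3 was equal in the Renca groups.

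Fcer1a had 0 to 7 counts per library in Renca responders and 0 to 6 in Renca non-responders, and was at 0 in 4 responders and 3 non-responders. Ms4a2 had 1 to 10 counts in Renca responders and 1 to 12 in Renca non-responders. With counts this low, neither chain was tested in Renca alone, and a difference was not detectable at this depth.

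On single flow cells of Renca, Hdc was called on the second and Kit on neither. In the first flow cell, replicates 1 to 6, Kit had a log2 fold change of 0.50 (adjusted p = 0.225, edgeR) and Hdc of 0.43 (adjusted p = 0.345, edgeR), in a fit that called 0 of all 15590 genes, of which 2803 had an unadjusted p under 0.05. In the second, replicates 7 to 12, Kit had 0.53 (adjusted p = 0.0621, edgeR) and Hdc 0.88 (adjusted p = 0.0226, edgeR). With the RNA purity ratios of the labels as covariates the log2 fold changes were 0.43 for Kit and 0.44 for Hdc and neither was called (adjusted p = 0.101 and 0.129, edgeR), in a fit that called 1.23% of all genes. In 1 fit of all 48 libraries, which called 6.15%, Hdc was not called (adjusted p = 0.0878, edgeR). Pan-leukocyte genes summed to 1944 to 3073 CPM in Renca responders and 1460 to 2396 CPM in Renca non-responders, again with 8 of 8 higher in responders. Per unit of that sum the log2 differences were 0.15 for Kit and 0.27 for Hdc (adjusted exact permutation p = 0.195 and 0.0882; unadjusted 0.122 and 0.0331), and the part of the leukocyte level was not tested further.

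**Figure D2:**
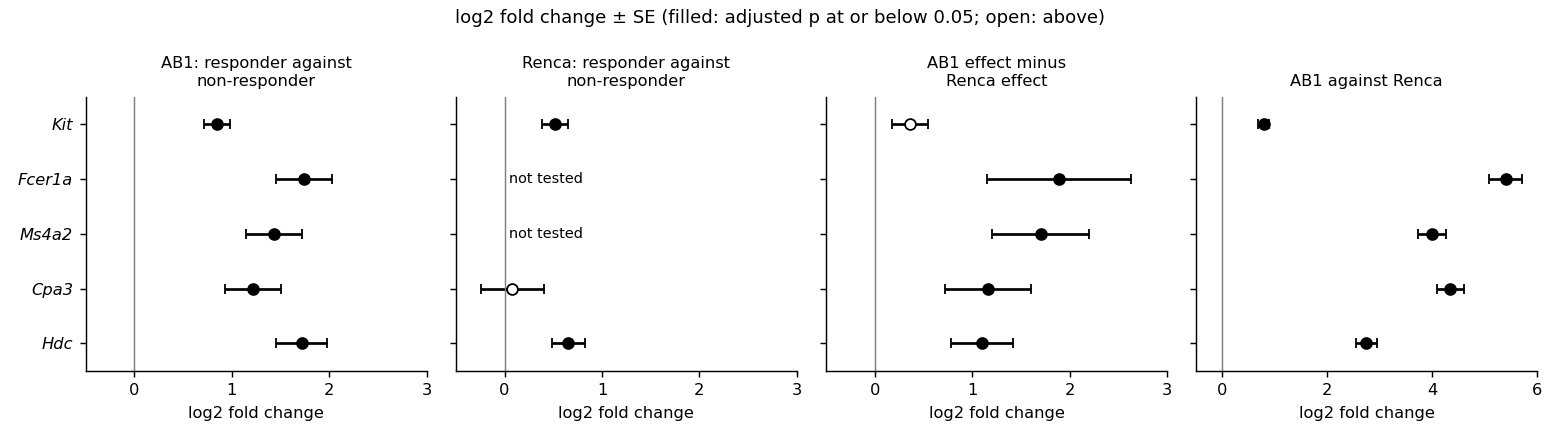
Log2 fold change ± SE on the x axis for each mast cell gene in 4 comparisons, with filled circles where the edgeR adjusted p was at most 0.05 and open circles where it was above. All 5 genes were above 0 in AB1, from 0.84 to 1.74, whereas Cpa3 was near 0 in Renca, and the last panel, AB1 against Renca, has a wider axis.

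The response effect was compared between the lines as an interaction over all 48 libraries, and it was larger in AB1 for Hdc and Cpa3, both of which had counts in each library of either line. Among 16920 tested genes, 41.6% were called at the same threshold and 22.9% had a larger log2 effect in AB1. The AB1 effect minus the Renca effect was 1.10 ± 0.32 for Hdc (SE; adjusted p = 0.00472, edgeR) and 1.70 ± 0.50 for Ms4a2 (SE; adjusted p = 0.00561, edgeR). It was 1.17 ± 0.44 for Cpa3 (SE; adjusted p = 0.0304, edgeR), 1.89 ± 0.74 for Fcer1a (SE; adjusted p = 0.0364, edgeR) and 0.36 ± 0.19 for Kit (SE; adjusted p = 0.115, edgeR), which was not called. Fcer1a and Ms4a2 entered this fit only through their AB1 counts, and with a few counts per library in Renca their values are not read as a difference between the lines. Blocked by replicate number, the adjusted p was 0.103 for Fcer1a and 0.0613 for Cpa3, so that only Hdc and Ms4a2 stayed called, and the same 2 calls were lost with no filter on low counts, with no flow cell term and without the 3 keratin-bearing libraries. Pan-leukocyte genes had a larger effect in AB1 for 8 of 8 genes, with a median difference of 0.93.

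Fcer1a, Cpa3, Ms4a2 and Hdc had larger log2 fold changes between the lines than between the outcomes of AB1, whereas Kit had 0.78 between the lines and 0.84 between the AB1 outcomes. Kit, Cpa3 and Hdc, which passed the filter on low counts in each line, were higher in AB1 than in Renca. Among all 16258 tested genes 42.2% were called higher and 81.4% were called in either direction. Fcer1a and Ms4a2 were called higher too, but they passed the filter only through AB1, the line where they are high. Their calls are therefore not read as support, and their fold changes rest on a few Renca counts per library. The log2 fold change was 5.40 ± 0.32 for Fcer1a, 4.34 ± 0.26 for Cpa3, 3.99 ± 0.27 for Ms4a2, 2.75 ± 0.19 for Hdc and 0.78 ± 0.10 for Kit (SE; edgeR adjusted p from 8.16e-21 to 9.8e-10). Mean Cpa3 was 28.8 times as high in AB1 responders as in Renca responders and 14.2 times as high in AB1 non-responders as in Renca non-responders. For Kit those ratios were 1.91 and 1.55. Line, day of removal and flow cell cannot be told apart, since each line was taken on its own day and run on its own flow cells. Pan-leukocyte genes were also higher in AB1, by a median log2 fold change of 0.65, which is under that of each of the 5 mast cell genes. Single pan-leukocyte genes lay on either side of Kit. The AB1 to Renca ratios of means, in responders and non-responders, were 2.56 and 1.94 for Arhgdib and 1.46 and 0.945 for Laptm5.

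Levels of the 5 mast cell genes and of Fcer1g were set side by side per kilobase of exon. In AB1 responders Cpa3 averaged 38.3 ± 18.4 CPM per kilobase (SD, n = 12), above Hdc at 15.1 ± 4.80, Fcer1a at 5.55 ± 2.60, Kit at 5.45 ± 1.51 and Ms4a2 at 2.05 ± 0.780. The means of Fcer1a and Kit lay closer together than the SD of either. In AB1 non-responders the order of means per kilobase was Cpa3 at 18.4 ± 13.0, Hdc at 5.001 ± 3.35, Kit at 3.11 ± 0.641, Fcer1a at 1.79 ± 1.15 and Ms4a2 at 0.790 ± 0.491. All genes were measured in the same tumours, and the SDs give the spread between tumours. Overlap of the SDs therefore does not show whether the order held within a tumour, which was not tested. The order was another in Renca. Kit led in Renca responders at 2.86 ± 0.540 CPM per kilobase, before Hdc at 1.63 ± 0.487 and Cpa3 at 1.33 ± 0.724, and Ms4a2 and Fcer1a averaged 0.0732 and 0.0716. In Renca non-responders Kit averaged 2.01 ± 0.552, Cpa3 1.29 ± 0.825, Hdc 1.04 ± 0.349, Ms4a2 0.0865 and Fcer1a 0.0787 CPM per kilobase. The common gamma chain Fcer1g, which FcεRI shares with IgG receptors of myeloid cells, averaged 419.7 ± 96.0 CPM per kilobase in AB1 responders and 173.4 ± 52.3 CPM per kilobase in AB1 non-responders, far above both IgE-specific chains.

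Within groups, 9 of the 10 gene pairs in AB1 had an adjusted p for r of at most 0.05, and the pair of Cpa3 and Hdc did not. Correlations were taken over 24 tumours per line on log2 CPM after removal of the mean of each group and flow cell, 10 gene pairs per line, with two-sided permutation within those cells and Benjamini-Hochberg adjustment over the 10. Fcer1a and Cpa3 in AB1 had Pearson r = 0.944 and Spearman rho = 0.912 (adjusted permutation p = 5e-05 and 1e-04, whose raw value of 1e-05 is the lower limit of 100000 resamples). Kit had r = 0.841 and rho = 0.791 with Fcer1a (adjusted permutation p = 6.67e-05 and 0.000333), and r = 0.812 and rho = 0.791 with Cpa3 (adjusted permutation p = 5e-05 and 0.00035). Without the 2 tumours farthest from the median, r was 0.914 for Fcer1a with Cpa3, 0.728 for Kit with Fcer1a and 0.70 for Kit with Cpa3. Hdc with Cpa3 had r = 0.319 and rho = 0.212 (permutation p = 0.151 and 0.34), while Kit and Fcer1a had r = 0.419 and 0.431 with Hdc (adjusted permutation p = 0.0452 for both r), with rho of 0.361 and 0.363 (adjusted permutation p = 0.11 and 0.111). Ms4a2 had r = 0.689 with Kit, 0.744 with Fcer1a and 0.654 with Cpa3, and 0.464, 0.625 and 0.493 without the 2 farthest tumours. Hdc with Ms4a2 had r = 0.595 and rho = 0.551 (adjusted permutation p = 0.0116 and 0.0184, r = 0.47 without the 2 farthest tumours).

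In Renca some pairs had lower and some higher coefficients than in AB1. Kit with Cpa3 had r = 0.0145 and rho = -0.0652 (adjusted permutation p = 0.958 and 0.779), while Kit with Hdc had r = 0.672 and rho = 0.635 (adjusted permutation p = 0.0175 and 0.0139, r = 0.599 without the 2 farthest tumours). Cpa3 with Hdc had r = 0.461 and rho = 0.283 (adjusted permutation p = 0.0806 and 0.276). Ms4a2 with Cpa3 had r = 0.613 and rho = 0.682 (adjusted permutation p = 0.0175 and 0.0122, r = 0.523 without the 2 farthest). Whether a correlation differed between the lines was not tested, and the low counts of Fcer1a and Ms4a2 in Renca limit their values there.

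**Figure D3:**
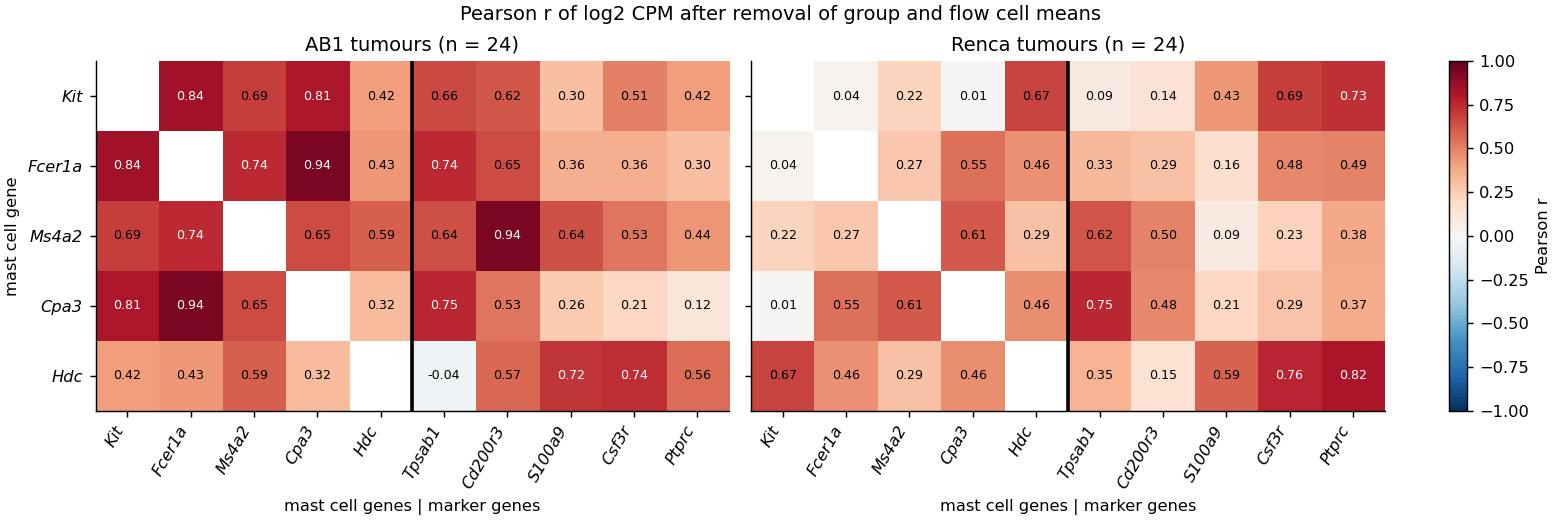
Pearson r of log2 CPM after removal of group and flow cell means, in 24 AB1 tumours (left) and 24 Renca tumours (right), with the mast cell genes down the page and mast cell genes and marker genes across. In AB1 Cpa3 and Fcer1a share r = 0.944, Ms4a2 and the basophil gene Cd200r3 share r = 0.938, and of the 5 marker genes plotted Hdc has its highest values with the neutrophil genes Csf3r and S100a9.

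Marker genes of related cells varied with different mast cell genes. For these, 50 relations were computed (5 genes, 5 markers, both lines), and the 5 markers were picked from the marker lists after their values were seen. Ms4a2 and Cd200r3, an activating receptor of basophils and mast cells, had r = 0.938 and rho = 0.959 in AB1 (adjusted permutation p = 0.000167 and 0.000125, r = 0.927 without the 2 farthest tumours). In Renca, where Ms4a2 had few counts, the pair had r = 0.499 and rho = 0.484 (adjusted permutation p = 0.0945 and 0.0832). Other genes of the basophil list are given as a description. With Ms4a2, Cyp11a1 had r = 0.955 in AB1 and 0.059 in Renca, and Il4 had -0.199 and -0.005. Hdc had r = 0.737 and rho = 0.757 with Csf3r, the G-CSF receptor of neutrophils, in AB1 (adjusted permutation p = 0.001 and 0.000786, r = 0.584 without the 2 farthest tumours) and r = 0.762 and rho = 0.698 in Renca (adjusted permutation p = 0.000786 and 0.00537, r = 0.683 without the 2 farthest tumours). Other neutrophil markers varied in their r with Hdc, given here as a description: Cxcr2 had 0.809 in AB1 and 0.055 in Renca, Mmp8 0.553 and 0.151, and Mmp9 -0.206 and -0.273. Genes of the receptor list reached similar values with Hdc in AB1, Adora3 with 0.822 and Ptger3 with 0.821, beside -0.275 and -0.357 in Renca. Cpa3 and the tryptase Tpsab1 had r = 0.753 and rho = 0.823 in AB1 (adjusted permutation p = 0.000167 and 0.000125) and r = 0.75 and rho = 0.755 in Renca (adjusted permutation p = 2e-04 and 5e-04), and without the 2 farthest tumours r was 0.688 and 0.747. Hdc with Tpsab1 in AB1 had r = -0.0414 and rho = -0.00522 (adjusted permutation p = 0.856 and 0.983). With the pan-leukocyte gene Ptprc, Cpa3 had r = 0.122 and rho = 0.297 in AB1 (adjusted permutation p = 0.671 and 0.263), and Hdc in Renca had r = 0.82 and rho = 0.835 (adjusted permutation p = 2e-04 and 0.000125, r = 0.755 without the 2 farthest tumours). AB1 responder 12 held the highest Cpa3, 121.5 CPM, and the lowest pan-leukocyte sum of its group, 2714 CPM.

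**Figure D4:**
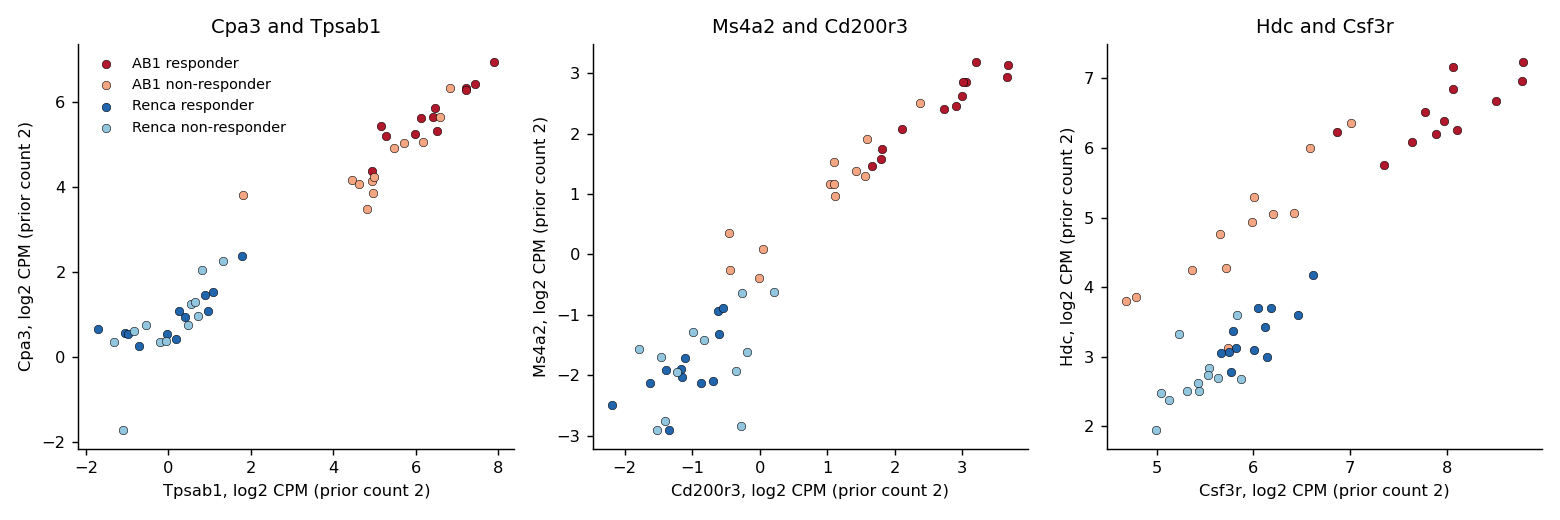
Log2 CPM (prior count 2) of Cpa3 against Tpsab1, Ms4a2 against Cd200r3 and Hdc against Csf3r, 1 point per tumour and 1 colour per group. AB1 and Renca form separate clouds for Cpa3 and Tpsab1, whereas they adjoin for Hdc and Csf3r, and 1 AB1 non-responder, replicate 3, lies at low Tpsab1 for its Cpa3.

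The genes most like each mast cell gene were taken by Pearson r of the same residuals over all 48 tumours and 11692 genes, as a description. For Cpa3 they were Tpsab1 (0.745), the cadherin Cdh11 (0.72) and Sorcs2 (0.691). For Ms4a2 they were Cd200r3 (0.751), Cyp4f18 (0.697) and Tspan32 (0.672), and for Hdc they were the granule proteoglycan serglycin, Srgn (0.849), Serpina3e-ps (0.823) and Ctse (0.819). Kit was most like Grap (0.774), Pik3r5 (0.771) and Havcr2 (0.769), and Fcer1a like Cyp2j9 (0.64), Rtn4rl1 (0.639) and Vstm4 (0.632). Fcer1a had a higher r with Cpa3, itself one of the chosen genes, at 0.944 in AB1 and 0.55 in Renca. Cyp2j9 had 0.749 and 0.523 there. The Fcer1a values also rest on at most 7 counts in any Renca library.

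Further genes linked to mast cells were read from lists. Tpsab1, the one tested protease of 7 listed, spanned 30.6 to 238.8 CPM in AB1 responders (median 86.7) and 3.43 to 113.5 CPM in AB1 non-responders (median 31.1). Its log2 fold change in AB1 was 1.31 ± 0.37 (SE; adjusted p = 0.00385, edgeR), lost with RNA purity ratios as covariates (adjusted p = 0.0512) and in the second flow cell alone (adjusted p = 0.0747). In Renca Tpsab1 stood at 0.218 to 3.33 CPM in responders and 0.314 to 2.41 CPM in non-responders, with a log2 fold change of 0.19 (adjusted p = 0.765, edgeR). Tpsab1 has a close paralog in Tpsb2, so its level is uncertain if the authors' counting split shared reads.

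Of 7 tested surface receptors, 4 were higher in AB1 responders and 3 were not called, beside 27.7% of all tested genes called higher. P2ry14, a UDP-glucose receptor, was the most separated, at 31.8 to 101.7 CPM in AB1 responders and 6.65 to 31.5 CPM in AB1 non-responders, groups that did not overlap (log2 fold change 2.09, adjusted p = 4.03e-07, edgeR). Adora3, the adenosine A3 receptor, had a log2 fold change of 1.48, the IL-33 receptor Il1rl1 of 0.83 and Il4ra of 0.62 in AB1. Within AB1 groups these receptors varied unequally with Cpa3, as a description. The r with Cpa3 was 0.801 for Mrgprb2, 0.494 for Mrgprb1, 0.445 for Adora3 and 0.398 for Ptger3. It was 0.201 for P2ry14, 0.194 for Il4ra and -0.471 for Il1rl1, while P2ry14 had 0.912 with the neutrophil gene Csf3r. Which cells held these receptors was not tested. The connective tissue mast cell receptors Mrgprb1 and Mrgprb2, which sense secretagogues, had 0.53 and 0.57 and were not called (adjusted p = 0.0873 and 0.0882, edgeR). In Renca 1 of 5 tested receptors was called, P2ry14 at 0.53 (adjusted p = 0.0239, edgeR), beside 19.6% of all tested genes. The call was lost with RNA purity ratios as covariates (adjusted p = 0.252, edgeR), in a fit that called 1.23% of all genes. It was also lost in the first flow cell alone (adjusted p = 0.465, edgeR) and in the fit of all 48 libraries (adjusted p = 0.104, edgeR). Il1rl1 averaged 1866 ± 491 CPM in AB1 responders and 1076 ± 296 CPM in AB1 non-responders, against 39.9 ± 9.31 CPM in Renca responders and 42.3 ± 5.65 CPM in Renca non-responders (SD, n = 12 each). In the same AB1 tumours Mrgprb1 averaged 2.48 CPM in responders and 1.77 CPM in non-responders, values that are not scaled to exon length.

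FcεRI signalling genes were higher in responders in both lines. In AB1 13 of 14 were higher and 1, the phospholipase Plcg1, was lower by 0.26 on the log2 scale, with a list median of 1.02. Fcer1g had a log2 fold change of 1.32, the kinases Syk 1.08 and Lyn 0.94 and the adaptor Lat 1.20. In Renca 11 of 14 were higher and 0 lower, with a median of 0.30, among them Lat at 0.60 and Fcer1g at 0.38. Among all tested genes 27.7% were called higher in AB1 and 11.1% in Renca. With RNA purity ratios as covariates Lat and Fcer1g were not called in Renca (adjusted p = 0.111 and 0.0932, edgeR), in a fit that called 1.23% of all genes. These genes serve other leukocytes too, and all 8 pan-leukocyte genes moved the same way in both lines.

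Granule genes were likewise higher: 6 of 6 tested in AB1, led by Srgn at 1.78, Unc13d at 1.61 and Rab27a at 1.44, and 5 of 6 in Renca, led by Rab27b at 0.73 and Srgn at 0.59. Among all tested genes 27.7% were called higher in AB1 and 11.1% in Renca. With RNA purity ratios as covariates Rab27b and Srgn were not called in Renca (adjusted p = 0.141 and 0.068, edgeR). That fit called 1.23% of all genes. With 1 library left out, both kept their Renca calls in all 24 fits, while Unc13d lost its own in 6 (adjusted p up to 0.0666, edgeR). Srgn anchors proteases and histamine in the granule, and Unc13d and Rab27a act in granule release. Of the histamine genes, Hrh2, the H2 receptor, had a log2 fold change of 1.55 in AB1 (9.80 to 33.6 CPM in responders, 4.202 to 14.1 CPM in non-responders) and 0.36 in Renca, where the call failed in 3 of the 24 fits made with 1 library left out (adjusted p up to 0.0512, edgeR). The Renca call of Hrh2 was also lost with RNA purity ratios as covariates (adjusted p = 0.116, edgeR) and in the fit of all 48 libraries (adjusted p = 0.207, edgeR). Neither Renca flow cell alone kept it (adjusted p = 0.286 in the first and 0.143 in the second, edgeR). The histamine-degrading enzyme Hnmt was lower in AB1 responders by 0.61 on the log2 scale (adjusted p = 0.00361, edgeR), and Hrh1 was not called in either line. For prostaglandin D2 and leukotriene C4 synthesis, 2 of 6 genes were higher in AB1 responders (Alox5ap 0.94, Hpgds 0.40) and Ptgs1 was lower (-0.75). The Hpgds call failed in 6 of the 24 fits made with 1 library left out (adjusted p up to 0.0691, edgeR). In Renca responders Ptgs1 was lower (-0.32), a call kept in all 24 such fits. That call was lost with RNA purity ratios as covariates (adjusted p = 0.0551, edgeR) and in the first flow cell alone (adjusted p = 0.22, edgeR). Alox5 was lower too (-0.32), but its call was lost in 16 of the 24 fits made with 1 library left out (adjusted p up to 0.0848, edgeR).

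Of the mast cell growth factors and alarmins, none that was tested was called higher in the responders of either line. Il3, a growth factor of mast cells and basophils, did not pass the filter on low counts and was not tested. Il3 measured 0.133 to 1.57 CPM in AB1 responders (3 to 36 counts) and 0 to 0.185 CPM in AB1 non-responders (0 to 4 counts), and 11 of 12 responders lay above every non-responder. Kitl, which encodes stem cell factor, measured 34.7 to 67.2 CPM in AB1 responders and 40.4 to 84.1 CPM in AB1 non-responders, a log2 fold change of -0.43 (adjusted p = 0.00507, edgeR) that was lost in the first flow cell alone (-0.21, adjusted p = 0.325). In Renca Kitl was not called (0.13, adjusted p = 0.32, edgeR). The alarmin Il33 was not called in either line, with log2 fold changes of 0.08 in AB1 and 0.04 in Renca. Of 9 transcription factors 6 were higher and 1 lower in AB1 responders, beside 27.7% of all tested genes called higher and 60.4% in either direction. Gata1 had a log2 fold change of 1.39 and the myeloid factor Spi1 of 0.83, Mitf was not called at -0.03, and Gata2, a factor of mast cell precursors, was lower at -0.27 (adjusted p = 0.0327, edgeR), a call lost with the replicate block (adjusted p = 0.0805) and in 10 of the 24 fits made with 1 library left out (up to 0.0855). Gata2 averaged 32.7 ± 5.25 CPM in AB1 responders and 40.7 ± 9.67 CPM in AB1 non-responders, against 3.29 ± 0.742 CPM in Renca responders and 3.61 ± 0.623 CPM in Renca non-responders (SD, n = 12 each). Of 8 tested in Renca, Mitf (0.44) and Spi1 (0.35) were higher and Tal1 lower (-0.14), beside 19.6% of all genes called in either direction. Each call was lost with RNA purity ratios as covariates (adjusted p = 0.0543, 0.0793 and 0.167, edgeR), in a fit that called 1.23% of all genes. Each was also lost in the first flow cell alone, where 0 of all genes were called. Tal1 was not called in the fit of all 48 libraries either (adjusted p = 0.0948, edgeR).

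**Figure D5:**
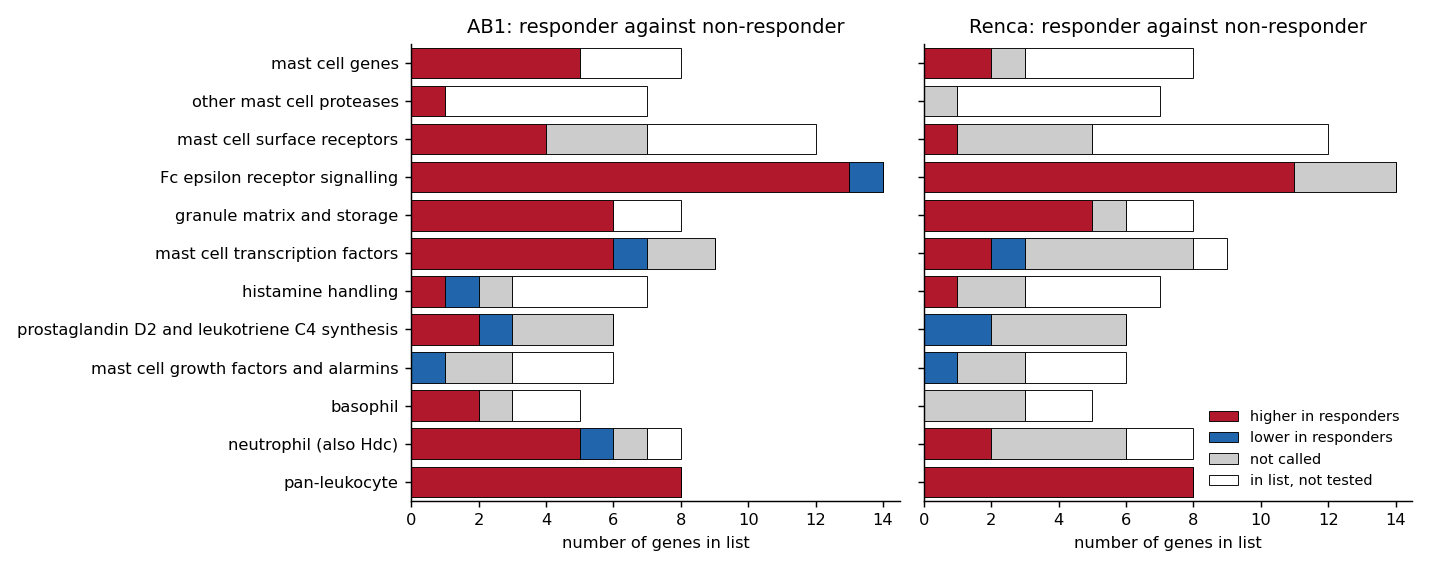
Number of genes in each list (x axis) that were higher in responders, lower in responders, not called or not tested, in AB1 (left) and Renca (right), by edgeR at an adjusted p of at most 0.05. In AB1 5 mast cell genes, 13 FcεRI signalling genes and 6 granule genes were higher, beside all 8 pan-leukocyte genes, and in Renca 2 mast cell genes and 11 signalling genes were higher. Of all tested genes 27.7% were called higher in AB1 and 11.1% in Renca.

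Markers of the cells that share these genes were measured beside them. Of all tested genes 27.7% were called higher in AB1 responders and 60.4% in either direction, against 11.1% and 19.6% in Renca. Of 3 tested basophil markers, 2 were higher in AB1 responders. Cd200r3 measured 3.09 to 12.8 CPM in AB1 responders and 0.637 to 5.08 CPM in AB1 non-responders (log2 fold change 1.89, adjusted p = 2.28e-05, edgeR), and Cyp11a1 had a log2 fold change of 1.94 (adjusted p = 1.99e-05, edgeR). Il4 was not called, at 0.01. In Renca 0 of 3 were called by edgeR or by DESeq2, with unadjusted edgeR p of 0.139 for Cd200r3, 0.504 for Cyp11a1 and 0.999 for Il4. Of 7 tested neutrophil markers, 5 were higher in AB1 responders, among them S100a9 at 2.30 and Csf3r at 2.14, and Mmp9, which other myeloid and tumour cells also express, was lower at -1.67. In Renca 2 of 6 were higher, Csf3r at 0.62 and S100a9 at 0.68, and the call of S100a9 failed in 19 of the 24 fits made with 1 library left out (adjusted p up to 0.0908, edgeR). In AB1 non-responder 11, the non-responder with the most mast cell RNA, the basophil markers summed to 21.0 CPM, the highest of its group. The library was also the highest of its group for 5 neutrophil markers, with Csf3r at 128.6 CPM, S100a9 at 60.2, Cxcr2 at 29.1, S100a8 at 25.4 and Mmp8 at 2.76 CPM. Its Mmp9, at 87.5 CPM, was the lowest of a group whose median was 1004.8 CPM. How much of each of the 5 genes came from mast cells, basophils or neutrophils was not tested.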

How the data were processed

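Whole-number counts per gene were deposited for 48 libraries of mouse tumour RNA, with no normalisation by the authors. In the submitters' processing notes the tools are StringTie 1.3.0, HISAT2 2.0.4 and bcl2fastq 2.18.0.12. The notes also list GRCh37 and hg19, both human, while the identifiers are mouse. No source used here gives the mouse build, the annotation, the counter or its strand setting, so reads of overlapping or near-identical genes may be misassigned. Exon lengths came from GENCODE M21 (GRCm38) and promoter windows from RefSeq (GRCm38.p6), in which all 5 genes were matched by symbol.

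Groups were taken from the sample titles. The main test was edgeR 4.0.16 (R 4.3.3) with TMM scaling and filterByExpr; its quasi-likelihood p-values were adjusted by Benjamini-Hochberg over all tested genes, with a threshold of 0.05. Each line was fitted with flow cell as a term. The difference of response effects was an interaction over 48 libraries, and AB1 against Renca had response as a term. An SE is the log2 fold change over the square root of F. CPM used TMM factors over all libraries, log2 CPM a prior count of 2, and no depth interval is given because replicates carry the error. The script was tested on simulated counts with known changes. Correlations and figures used Python 3.11.15 with numpy 2.4.6 and matplotlib 3.10.9. Alternatives were RLE scaling, no filter, DESeq2 1.42.0, blocks, covariates, single flow cells and left-out libraries.

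The members, lists and tests were chosen with earlier results of these data known, and the division by pan-leukocyte genes was added last. That division was tested by listing every assignment within flow cells, because random resampling put the adjusted p of Hdc in AB1 on either side of 0.05. The text names the 5 genes, genes of the lists that passed, the largest first, and others where a count of few needed names; some listed genes are not reported here. The plan held 28 gene pairs per line, and the 5 genes found give 10. Same-numbered responders and non-responders of a line shared a sequencing lane in 12 of 12 pairs, by the labels. In each line 8 of these pairs had a lane of their own, while replicates 9 to 12 shared 1 lane, so the number marks a separate batch for 8 of 12 pairs. Their deviations from group means correlated from -0.0911 to 0.515 in AB1 and from -0.126 to 0.261 in Renca.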

Additional observations from a re-analysis of the deposited data

Results flagged for a closer look

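The response effect of Hdc and Cpa3 was larger in AB1 than in Renca by edgeR's interaction test, by 1.10 and 1.17 on the log2 scale. The Cpa3 call was lost with the replicate block (adjusted p = 0.0613, edgeR) and with no flow cell term (adjusted p = 0.0713, edgeR). It was also lost with no filter on low counts (adjusted p = 0.0623, edgeR) and without the 3 keratin-bearing libraries (adjusted p = 0.0631, edgeR). Hdc kept its call in each of these fits. The interaction test gave 1.70 for Ms4a2 and 1.89 for Fcer1a, of which Fcer1a was lost in the same fits (adjusted p = 0.103 with the block, edgeR). For Hdc, 7 of 12 AB1 responders and 4 of 12 Renca responders lay above every non-responder of their line. For Cpa3 this held for 3 of 12 AB1 responders and 1 of 12 Renca responders. Cpa3 had a log2 fold change of 1.22 in AB1 and of 0.08 in Renca. Fcer1a and Ms4a2 had at most 7 and 12 counts in any Renca library, and passed the filter only through AB1, so their values are not read as a difference between the lines. Of all 16920 tested genes, 41.6% passed the same test.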

How the results depend on the processing

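The AB1 count of 5 genes was 4 in the second flow cell alone, which lost Cpa3, and 0 per pan-leukocyte level (unadjusted exact permutation p under 0.05 for Hdc and Kit). It was 5 in the other alternatives, and 5 to 5 when each library was left out. The count of 5 between AB1 and Renca, which includes Fcer1a and Ms4a2 that passed the filter only through AB1, held in all 7 alternatives. The Renca count of 2 fell to 0 with RNA purity ratios as covariates (adjusted p = 0.101 for Kit and 0.129 for Hdc, edgeR) and to 0 in the first flow cell alone. Those fits called 1.23% and 0 of all genes, the first flow cell having 2803 of 15590 genes at an unadjusted p under 0.05. It was 1 in the second flow cell alone, where Hdc was kept, and 1 in the fit of all 48 libraries, where Kit was kept. It stayed at 2 to 2 when each library was left out. The count of 4 for the difference of effects, which includes Fcer1a and Ms4a2 with few Renca counts, was 2 with no filter on low counts, 2 with the replicate block, 2 without the 3 keratin-bearing libraries and 2 with no flow cell term, in each of which Hdc and Ms4a2 were called and Cpa3 and Fcer1a were not. The replicate block ended no call of these genes within either line. Between the lines it ended none either, but there it joined AB1 and Renca tumours of the same number, which shared no flow cell or day. It is therefore no check on that comparison. Per pan-leukocyte level, Kit in AB1 turned to -0.36. Between the lines, among non-responders alone, Lyn turned to -0.0793, Rab27a to -0.0912, Alox5ap to -0.14 and Cyp11a1 to -0.78, and among responders alone Unc13d turned to 0.31. The cause was not tested. Fits on 1 flow cell or 1 outcome hold fewer samples. Libraries were not left out in turn for the difference of effects or between the lines. At these depths Fcer1a and Ms4a2 cannot be compared within Renca.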

Other observations

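AB1 non-responder 3, the library with the most skin epithelium RNA, had 74 Tpsab1 counts beside 301 Cpa3 counts, a ratio of 0.246. In the other 11 AB1 non-responders the ratio ran from 1.23 to 2.53, and in AB1 responders from 0.823 to 2.31. This ratio was looked at after its values were seen. Tpsg1, another tryptase, was not tested, with at most 0.705 CPM in AB1 responders and 0.396 CPM in AB1 non-responders.

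Of the eosinophil genes, Siglecf was higher in AB1 responders (log2 fold change 0.99, adjusted p = 0.0145, edgeR) and was not called within either flow cell alone, while Ear1, Ear2 and Ear6 were lower in Renca responders (-0.62, -0.60 and -0.69; adjusted p = 0.0294, 0.0287 and 0.0468, edgeR). These ribonucleases belong to a family of near-identical copies, so reads may be shared between them. The prostaglandin E receptor Ptger3 was lower in AB1 than in Renca (log2 fold change -6.57), whereas Kitl and Il33 were higher in AB1 (1.35 and 2.28).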
